A study of Homo sapiens with 2 samples.

Results

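The nuclear genes of the mitochondrial respiratory chain were followed through FAIRE-seq peak lists of HepG2, a long-established line grown from a human liver cancer. Members were the protein-coding genes whose symbols start with NDUF, SDHA to SDHD, UQCR, COX4 to COX8 or ATP5, with genes of the mitochondrial chromosome left out. The rule took 102 of 20007 protein-coding genes and 187 of 56159 listed peaks. A total of 70 members (68.6%) had at least 1 peak of any kind, beside 52.7% of all protein-coding genes, and 32 had none. Because symbols chose the members, assembly factors that carry an NDUFAF or SDHAF name were included.

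Cells had received lentivirus carrying a scrambled hairpin RNA (shCT, control) or one aimed at the nuclear receptor NR2E3 (shNR2E3, NR2E3-depleted). There was 1 library per group, the depleted cells came from 1 hairpin line, and both groups carried the virus, so no difference below has a replicate check. FAIRE enriches the DNA of open chromatin, which escapes crosslinking to nucleosomes, and does not measure transcripts, so the depletion itself was not assessed. Peaks came in 3 lists. The common list, shared by both libraries, had 14368 entries, 56 of them at members. The control-specific list had 16236, with 47 at members. The depleted-specific list was the longest, at 25555 entries, with 84 at members. Because the lists differ in length, these member counts alone do not show a difference particular to the respiratory chain.

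The respiratory chain passes electrons from NADH (complex I) and succinate (complex II) through complex III to oxygen at complex IV, and complex V, the ATP synthase, uses the resulting proton gradient to make ATP. A few subunits are encoded in mitochondrial DNA and all others in the nucleus, scattered over the chromosomes, so the complexes depend on many separate nuclear promoters. NRF1, GABP (an ETS factor), YY1 and Sp1 are textbook regulators of these promoters. Hepatocytes are rich in mitochondria.

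Each peak was 300 bp wide and carried a score, a tag number scaled by library. Scores under 10 were whole multiples of 1 tag in every list, which gave the tags behind each peak. If the scale was 10 M tags, the control library held 24.6 M tags and the depleted library 19.7 M. Common peaks carried scores on the control scale, so scores were compared within a list, and the height of a common peak in the depleted library was not analysed here. Member promoter peaks rested on 11 to 27 tags. The 95% intervals given for shares (exact Clopper-Pearson) and tags (exact Poisson) cover counting error only.

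The DNA of the peaks is shown first for the members on which the comparison turned, as hg38 sequence of the gene's strand, 5′ to 3′. Each stretch is the part of the peak upstream of the start site and outside exons annotated in GENCODE release 44. Genes missing from that annotation, such as small RNA genes, were not looked for, so a stretch can hold one. Capitals mark matches to GCATGCGC (NRF1), CCGGAAGT (ETS), AAGATGGC (YY1), GGGCGG (Sp1) or CCAAT (NFY) on either strand, so ATTGG and CCGCCC are reverse-strand matches. None of these strings contains another. The depleted-specific promoter peaks with the highest scores that had at least 60 such bases were those of NDUFV3, COX7C, COX5A and NDUFAF3.
NDUFV3 chr21:42893087-42893267 (plus strand): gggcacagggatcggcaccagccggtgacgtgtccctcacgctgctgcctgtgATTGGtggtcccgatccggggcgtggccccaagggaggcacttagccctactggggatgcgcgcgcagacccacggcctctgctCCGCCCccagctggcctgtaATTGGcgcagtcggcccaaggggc
COX7C chr5:86617740-86617927 (plus strand): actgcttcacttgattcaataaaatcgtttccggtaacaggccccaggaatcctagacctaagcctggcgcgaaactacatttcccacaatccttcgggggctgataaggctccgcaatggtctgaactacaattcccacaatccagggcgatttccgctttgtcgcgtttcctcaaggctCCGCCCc
COX5A chr15:74938084-74938377 (minus strand): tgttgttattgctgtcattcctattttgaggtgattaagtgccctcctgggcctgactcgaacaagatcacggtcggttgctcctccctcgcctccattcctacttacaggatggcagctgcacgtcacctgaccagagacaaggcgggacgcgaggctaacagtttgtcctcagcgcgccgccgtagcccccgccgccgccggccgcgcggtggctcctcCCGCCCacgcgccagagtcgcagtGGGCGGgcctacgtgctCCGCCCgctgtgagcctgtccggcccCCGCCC
NDUFAF3 chr3:49021400-49021604 (plus strand): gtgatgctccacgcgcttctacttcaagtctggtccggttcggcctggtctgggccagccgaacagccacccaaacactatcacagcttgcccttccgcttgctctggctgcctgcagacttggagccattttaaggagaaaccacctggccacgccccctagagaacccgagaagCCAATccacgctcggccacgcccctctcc

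For the control-specific list, the peak of NDUFS7 is shown, whose score was level with the highest of members' promoter peaks in that list.
NDUFS7 chr19:1383245-1383526 (plus strand): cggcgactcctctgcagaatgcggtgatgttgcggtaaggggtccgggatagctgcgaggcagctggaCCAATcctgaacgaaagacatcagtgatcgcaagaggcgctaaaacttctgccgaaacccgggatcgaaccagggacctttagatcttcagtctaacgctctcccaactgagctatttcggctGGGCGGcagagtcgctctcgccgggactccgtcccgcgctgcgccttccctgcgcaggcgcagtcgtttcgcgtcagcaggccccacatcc

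From the common list, COX5B and COX6A1 are shown because their stretches held the most kinds of motif among members' common promoter peaks, and NDUFAF8 because its score was the highest of members' common promoter peaks.
COX5B chr2:97645770-97646061 (plus strand): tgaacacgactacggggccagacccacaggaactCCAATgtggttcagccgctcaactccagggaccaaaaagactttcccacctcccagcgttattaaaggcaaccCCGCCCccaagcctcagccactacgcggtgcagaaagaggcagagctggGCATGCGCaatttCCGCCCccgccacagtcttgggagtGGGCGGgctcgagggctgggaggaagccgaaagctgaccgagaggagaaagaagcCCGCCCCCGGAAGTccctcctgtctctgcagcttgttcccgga
COX6A1 chr12:120437840-120438089 (plus strand): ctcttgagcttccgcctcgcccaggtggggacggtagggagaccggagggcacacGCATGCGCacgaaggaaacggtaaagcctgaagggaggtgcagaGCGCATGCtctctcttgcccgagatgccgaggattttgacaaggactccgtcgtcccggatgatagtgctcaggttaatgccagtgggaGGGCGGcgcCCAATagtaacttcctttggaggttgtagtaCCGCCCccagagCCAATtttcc
NDUFAF8 chr17:81239120-81239304 (plus strand): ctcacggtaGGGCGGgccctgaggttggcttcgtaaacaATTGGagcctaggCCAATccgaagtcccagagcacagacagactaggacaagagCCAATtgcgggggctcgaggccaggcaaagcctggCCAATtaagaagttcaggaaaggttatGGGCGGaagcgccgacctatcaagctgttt

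These stretches were chosen by different rules, some by kinds of motif and some by score, so what they held does not compare the lists. Those of COX5B and COX6A1 carried the NRF1 string, COX6A1 at 2 places. The depleted-specific stretches carried Sp1 or NFY strings, and COX5A had 4 Sp1 strings. The stretch of NDUFS7 carried 1 Sp1 and 1 NFY string. A match describes the letters and does not show binding.

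Promoters of respiratory chain genes were listed more often than promoters at large in the common and the depleted-specific lists, and about as often in the control-specific list. A promoter peak is one that the deposited annotation classed as promoter-TSS. Common promoter peaks were listed for 26 of 102 members, or 25.5% (17.4 to 35.1), beside 14.9% of all protein-coding genes. Depleted-specific promoter peaks were listed for 22 members, or 21.6% (14.0 to 30.8), beside 11.9%. Control-specific promoter peaks were listed for 4 members, or 3.92% (1.08 to 9.74), beside 3.73%. The last share was that of the background.

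Joined by library, 29 members (28.4%, 19.9 to 38.2) had a promoter peak in the control library and 48 (47.1%, 37.1 to 57.2) in the depleted library. All protein-coding genes also had more promoter peaks in the depleted library, with 18.0% in the control library and 26.0% in the depleted one. In any list, 51 members (50%) had a promoter peak, beside 28.7% of all genes. Members had 5.5 times as many depleted-specific as control-specific promoter genes (1.87 to 22), and all protein-coding genes had 3.2 times as many (2.94 to 3.48). The members' interval contained the value for all genes, so a larger skew at members was not detectable with these numbers.

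**Figure D1:**
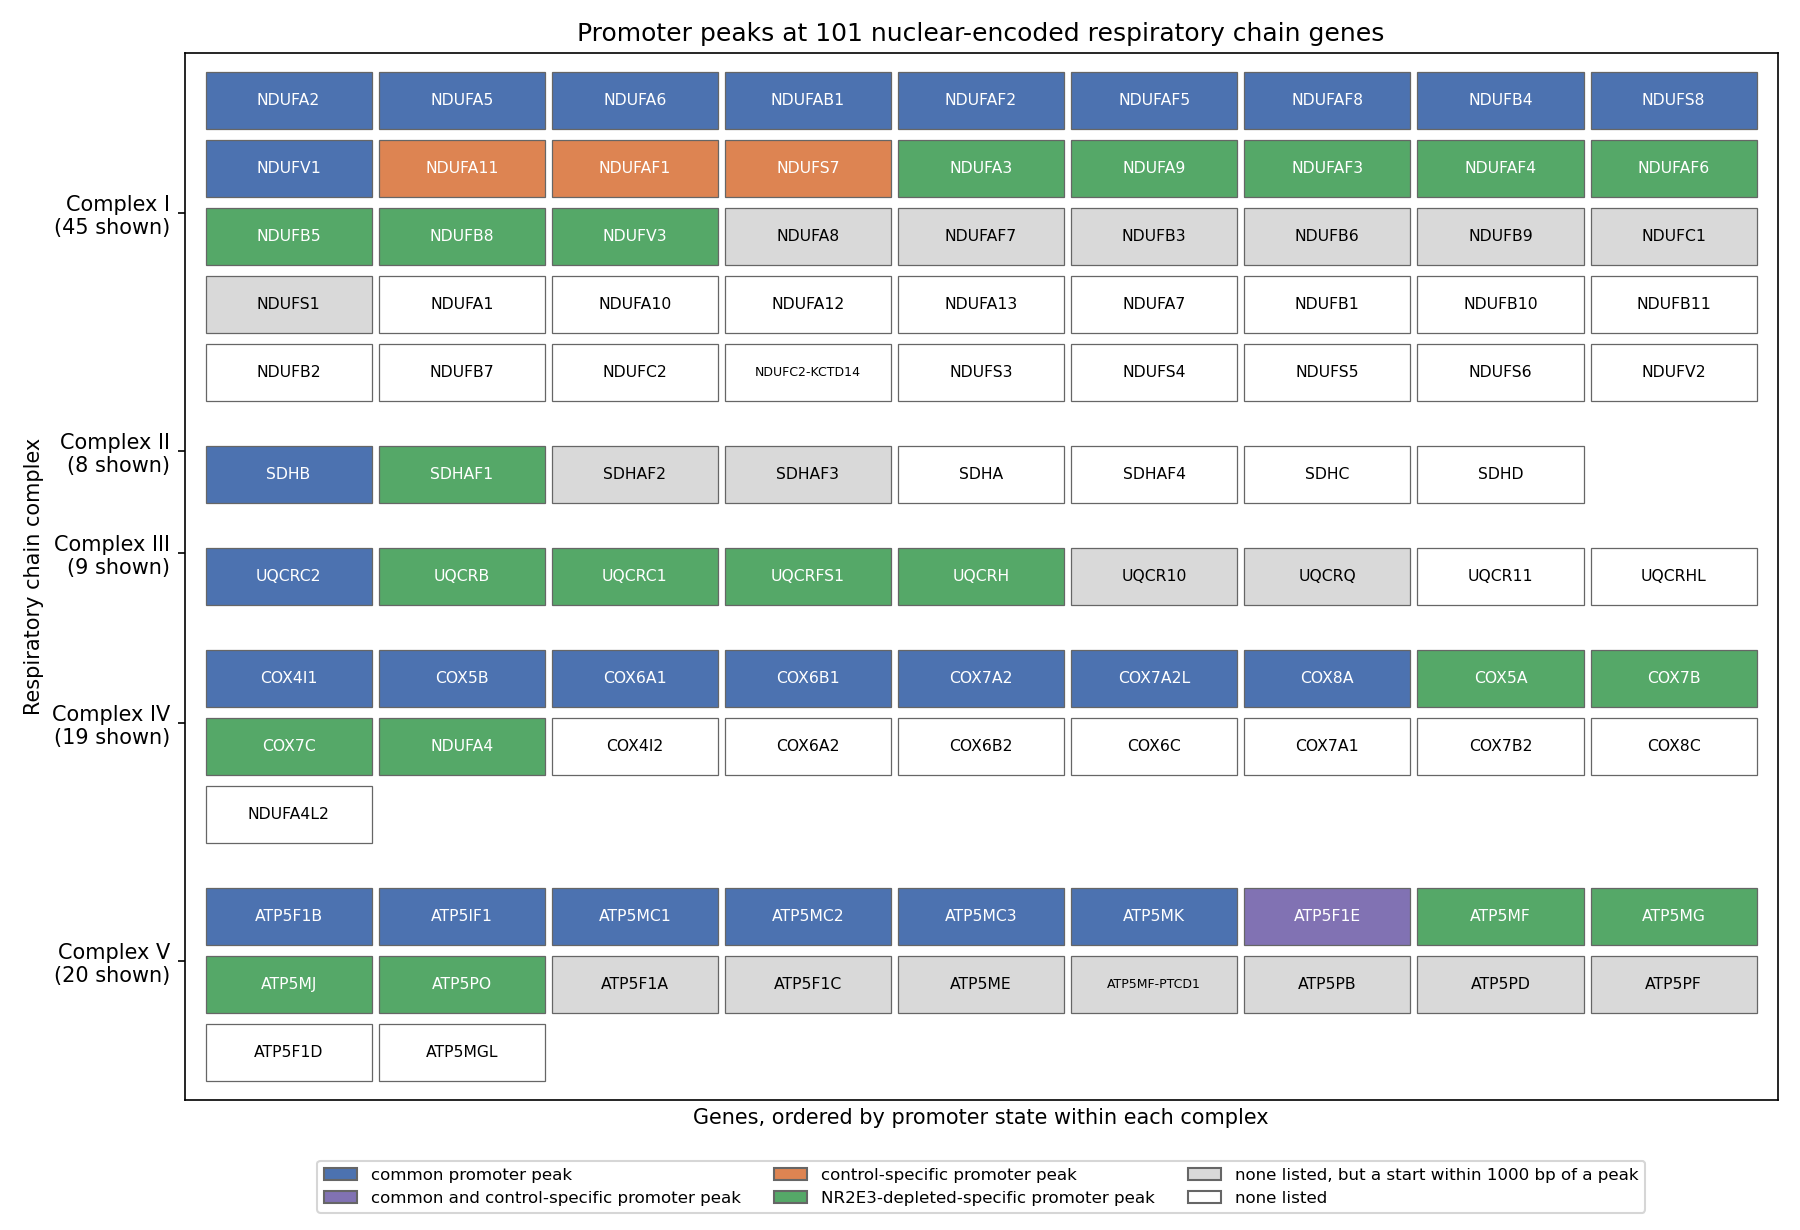
Promoter state of 101 of the 102 members, 1 box a gene, in rows by complex. Blue boxes have a common promoter peak, orange a control-specific one, green a depleted-specific one and purple both a common and a control-specific one. Grey boxes have no listed promoter peak but a start within 1000 bp of a peak, and white boxes have neither. Complex III shows 4 green boxes and 1 blue box among 9, and its grey boxes are UQCR10 and UQCRQ.

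Complex I, the NADH dehydrogenase and the largest complex, had 46 members. Of these, 13 had a promoter peak in the control library and 19 in the depleted library, beside 18.0% and 26.0% of all protein-coding genes. Depleted-specific promoter peaks were listed for 9 of them. The 2 highest scores of any depleted-specific member promoter were at accessory subunits of this complex. NDUFB5, of the membrane arm, had 22 tags (13.8 to 33.3), a score of 11.2, at chr3:179604621-179604921, centred 16 bp upstream of the start. NDUFV3, of the NADH-binding module, had 21 tags (13.0 to 32.1), a score of 10.6, at chr21:42893087-42893387. The 2 were named for their height, and both intervals contained the median of 14 tags for depleted-specific promoter peaks of all protein-coding genes.

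The other accessory subunits of complex I with a depleted-specific promoter peak lay nearer to that median. NDUFA9, which sits near the quinone-binding region, had 17 tags (9.90 to 27.2) at chr12:4648972-4649272. NDUFA3 had 12 tags at chr19:54102643-54102943, in a promoter that the annotation named after OSCAR. NDUFB8 had 11 tags (5.49 to 19.7) at chr10:100529755-100530055, level with SDHAF1 as the lowest.

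Complex I assembly factors, which help to build the enzyme and are not part of it, had 3 depleted-specific promoters among 8. NDUFAF3 and NDUFAF4 act together early in assembly. NDUFAF3 had 16 tags (9.15 to 26.0) at chr3:49021364-49021664, in a promoter named after the microRNA gene MIR191, and NDUFAF4 had 15 tags at chr6:96897766-96898066. NDUFAF6 had 14 tags. Of the same 8, NDUFAF2, NDUFAF5 and NDUFAF8 had common promoter peaks, so 4 of 8 were listed in the control library and 6 in the depleted library.

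Complex I, with 46 of the 102 members, also held 3 of the 4 control-specific member promoters. NDUFS7, a core subunit with an iron-sulfur cluster, had 15 tags at chr19:1383245-1383545, centred 512 bp upstream of the start that the list used and 132 bp upstream of the first annotated start. NDUFAF1, an assembly factor, also had 15 tags. NDUFA11, a membrane arm subunit, had 15 tags at chr19:5903722-5904022, in a promoter named after VMAC, and lay 832 bp from a common peak. Each of the 3 had the same count, with an interval of 8.40 to 24.7, and lay at the median of 15 tags for control-specific promoter peaks of all protein-coding genes.

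Complex II, succinate dehydrogenase, is encoded entirely in the nucleus and also works in the citric acid cycle. Of its 4 subunits, SDHB, the iron-sulfur subunit, had a common promoter peak (18 tags, 10.7 to 28.4), and SDHA, SDHC and SDHD had no peak of any class. Of its 4 assembly factors, SDHAF1, which serves the iron-sulfur clusters of SDHB, had a depleted-specific promoter peak of 11 tags at chr19:35994932-35995232.

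Complex III, the cytochrome bc1 complex, had 9 members. Of these, 1 had a promoter peak in the control library and 5 in the depleted library, beside 18.0% and 26.0% of all protein-coding genes. By any start within 1000 bp, 2 of the 9 were at a common, 1 at a control-specific and 6 at a depleted-specific peak. Among them was UQCRQ, whose start lay 65 bp from a common peak of 18 tags listed for GDF9. The 4 depleted-specific promoters covered different parts of the enzyme. UQCRC1, a core protein, had 15 tags at chr3:48609540-48609840. UQCRFS1, the Rieske iron-sulfur protein that hands electrons to cytochrome c1, had 13 tags at chr19:29213075-29213375. UQCRH, the hinge protein, had 14 tags at chr1:46303489-46303789, in a promoter named after LRRC41. UQCRB, a small subunit, had 15 tags, centred 1 bp from its start. The other core protein, UQCRC2, was the member with 2 common promoter peaks, of 24 tags at 831 bp and 18 tags at 38 bp upstream. With 9 genes, a difference of complex III from the other complexes was not tested.

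Complex IV, cytochrome c oxidase, had 19 members, with 7 promoters in the control library and 11 in the depleted library. The shares over all protein-coding genes were 18.0% and 26.0%. NDUFA4 was counted here, since its protein is now placed in complex IV. COX7C had 18 tags (10.7 to 28.4) at chr5:86617740-86618040 and COX5A had 17 tags (9.90 to 27.2) at chr15:74938077-74938377. COX7B had 14 tags at chrX:77899157-77899457, and NDUFA4 had 14 tags at chr7:10940337-10940637, centred 334 bp upstream and thus the farthest of the 22 from its start. No control-specific promoter peak was listed for a member of this complex, beside 3.73% of all protein-coding genes. With 19 genes, that absence is not distinguishable from the background. COX5A and COX5B, which are different subunits despite their names, fell in different lists, COX5A in the depleted-specific and COX5B in the common list.

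The isoform genes of complex IV were split by promoter peak. In 6 pairs, a broadly used isoform stands beside one known mainly from tissues such as muscle, lung or testis, and these pairs were picked out after the values were seen. All 6 broad isoforms had a promoter peak in some list, as did 50% of members and 28.7% of all protein-coding genes. COX4I1, COX6A1, COX6B1, COX7A2 and COX8A had a common one, with 17 to 22 tags, and COX7B a depleted-specific one. None of the 6 partners, COX4I2, COX6A2, COX6B2, COX7A1, COX7B2 and COX8C, had a promoter peak in any list. COX6C, a subunit outside these pairs, had no peak of any class. The split was not tested.

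Complex V, the ATP synthase, had 20 members, with 7 promoters in the control library and 11 in the depleted library. The shares over all protein-coding genes were 18.0% and 26.0%. Its 4 depleted-specific promoters belonged to the membrane part and the stalk. ATP5PO, the peripheral stalk protein that confers oligomycin sensitivity, had 13 tags at chr21:33915798-33916098. ATP5MF and ATP5MG, membrane subunits, had 14 tags at chr7:99466088-99466388 and 13 tags at chr11:118401444-118401744. ATP5MJ, a small proteolipid, had 15 tags at chr14:103921400-103921700. All 3 genes for the c subunit of the rotor ring, ATP5MC1, ATP5MC2 and ATP5MC3, had common promoter peaks, with 25, 13 and 22 tags.

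ATP5F1E, the epsilon subunit of the catalytic head, was the member with promoter peaks in 2 lists. Its common peak had 26 tags (17.0 to 38.1), centred 54 bp upstream of the start. Its control-specific peak had 14 tags (7.65 to 23.5) at chr20:59032745-59033045, centred 560 bp upstream and 506 bp from the common peak. The start itself was therefore listed in both libraries.

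Among all common promoter peaks of members, the highest counts in the control library were 27 tags at NDUFAF8, a complex I assembly factor, 26 at ATP5F1E, 25 at ATP5MC1, and 24 at COX5B, a structural subunit of complex IV, and at UQCRC2. The lowest were 12 tags at NDUFA6 and 13 at NDUFV1 and ATP5MC2, followed by 14 at ATP5IF1, ATP5MK and NDUFB4. NDUFA6 is an accessory subunit and NDUFV1 the core subunit that binds NADH, while ATP5IF1 is the inhibitor of the ATP synthase. The intervals of the top and the bottom of this list overlapped, at 17.8 to 39.3 tags for NDUFAF8 and 6.20 to 21.0 for NDUFA6.

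**Figure D2:**
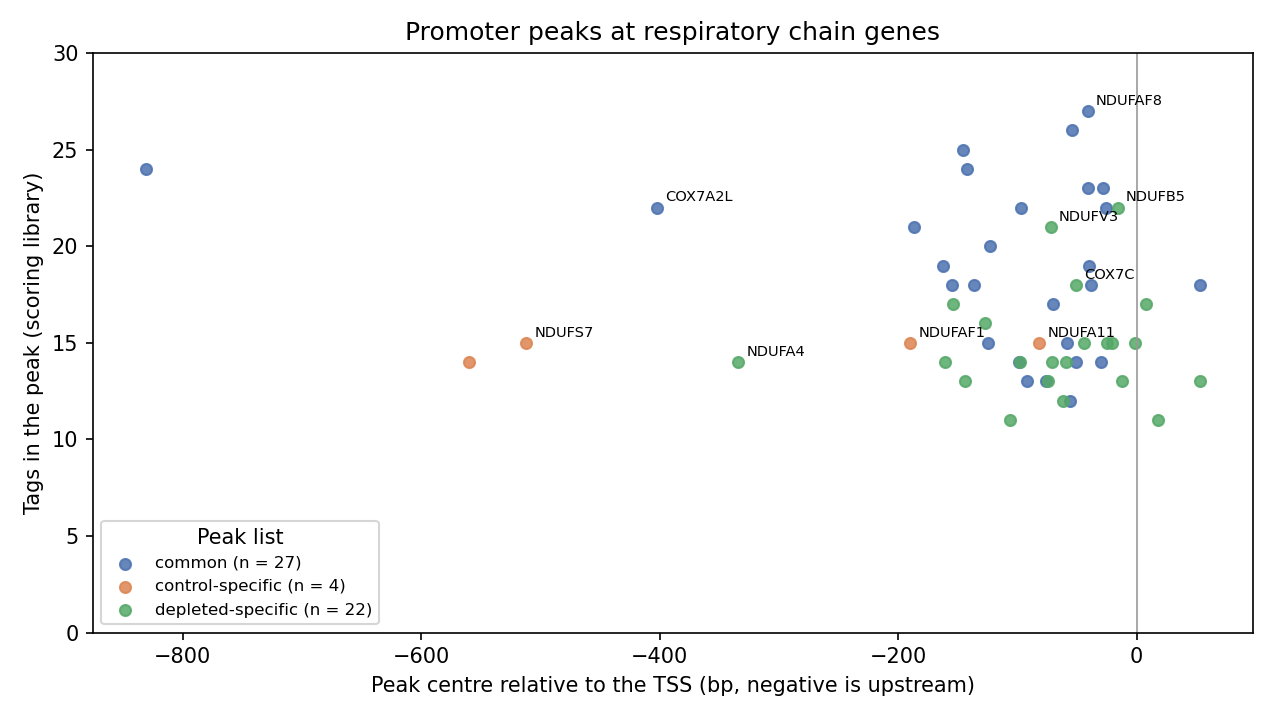
Tags (vertical axis) against the distance of the peak centre from the transcription start site in bp (horizontal axis, negative upstream) for the 53 member promoter peaks, 1 point a peak, coloured by list. Tags of common and control-specific peaks are of the control library and those of depleted-specific peaks of the depleted library, so heights are comparable within a list. Most points lie within 200 bp upstream of the start, and 2 of the 4 control-specific points lie over 500 bp upstream of the start that the lists used.

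Member promoter peaks had ordinary heights and sat close to the start, taken as the start that the lists used, which for some genes is not the first annotated one. The median score of common member promoters was 7.73 (6.1 to 8.95) beside 6.91 for all protein-coding genes, and that of depleted-specific ones was 7.1 (6.59 to 8.11) beside 7.1. Peak centres lay 0 to 200 bp upstream of the start in 88.9% (70.8 to 97.7) of common member promoters, beside 61.9% of all common promoter peaks. In the depleted-specific list the share was 81.8% (59.7 to 94.8) beside 61.2%. This range of distances was chosen after the distances were seen. The median GC content was 59.7% in common and 61.7% in depleted-specific member promoters, beside 62.7% and 65.2%.

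None of the 22 depleted-specific member promoters lay within 1000 bp of a common or of a control-specific peak, as 6.77% and 5.09% of all depleted-specific promoter peaks did. Of the 4 control-specific ones, 2 (NDUFA11 and ATP5F1E) lay within 1000 bp of a common peak, beside 15.5% of all control-specific promoter peaks. With these taken as shared, 2 control-specific members were left. Many depleted-specific peaks rested on few tags. Of the 22 at members, 16 had 11 to 15 tags, and a minimum of 15 tags left 10 members, beside 4.85% of all protein-coding genes.

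NRF1 strings in common member promoters and YY1 strings in depleted-specific ones had intervals above the share of all promoter peaks of their list. This held within 100 bp of the peak centre but not within 50 bp, where both intervals contained that share. The 2 were picked out from 5 strings searched in each list. Motifs were searched within 100 bp of the peak centre, exons included. The NRF1 string was in 6 of 27 common member promoter peaks (22.2%, 8.62 to 42.3), beside 5.53% of all common promoter peaks. The 6 genes were ATP5MC2, COX5B, COX6A1, NDUFAF5, NDUFB4 and SDHB, from complexes I, II, IV and V. It was in 1 of 22 depleted-specific ones (4.55%, 0.115 to 22.8), that of NDUFAF4, beside 4.69%. The difference between the lists was not tested, and their intervals overlapped. The share moved with the window. Within 50 bp of the centre the string was in 3 of 27 common member promoter peaks (11.1%, 2.35 to 29.2), beside 3.07%, and over all 53 member promoter peaks the share went from 13.2% to 7.55%.

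The YY1 string was in 5 of 22 depleted-specific member promoter peaks (22.7%, 7.82 to 45.4), beside 3.45% of all such peaks. The genes were NDUFA3, NDUFA9, NDUFB5, NDUFB8 and UQCRC1, of which 4 encode accessory subunits of complex I. In the common list 2 of 27 (7.41%) held it, beside 3.23%. The YY1 share also moved with the window. Within 50 bp, 2 of 22 depleted-specific member promoter peaks held it (9.09%, 1.12 to 29.2), beside 1.64%. Over all 53 member promoter peaks, 13.2% held the string within 100 bp of the centre and 3.77% within 50 bp.

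The Sp1 string was in 59.3% (38.8 to 77.6) of common and 36.4% (17.2 to 59.3) of depleted-specific member promoters, beside 56.8% and 58.4%. The NFY string was in 63.0% (42.4 to 80.6) of common and 27.3% (10.7 to 50.2) of depleted-specific ones, beside 42.8% and 33.1%. Each of these intervals contained the share of all promoter peaks. The ETS string was in 1 of 53 member promoter peaks, that of UQCRH (1.89%, 0.0478 to 10.1), beside 6.99%. Within 150 bp of the centre, 4 of the 53 held it (7.55%, 2.10 to 18.2), beside 8.90%, and COX5B has one in its printed stretch outside the 100 bp window. Of the 53 peaks, 11 held none of the 5 strings and 23 held 1 kind.

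**Figure D3:**
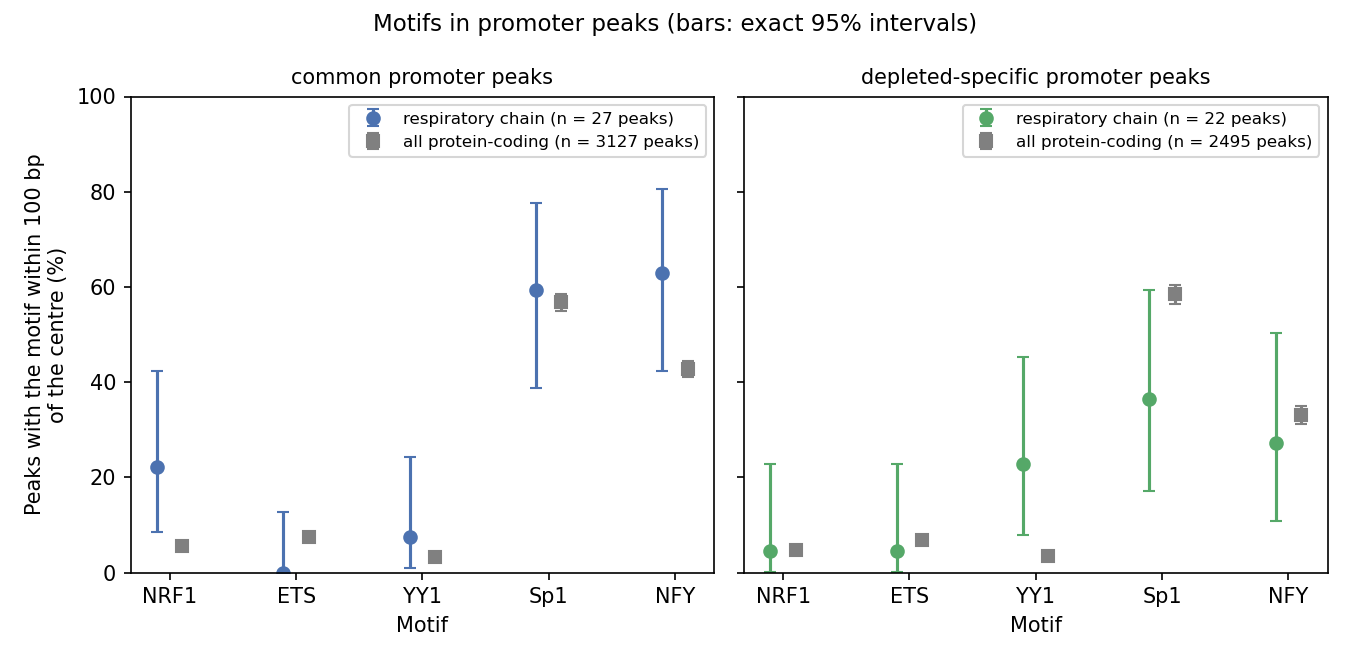
Share of promoter peaks, in percent, with each of 5 motif strings within 100 bp of the centre, for common (left) and depleted-specific (right) peaks. Coloured circles are member peaks and grey squares all protein-coding promoter peaks, with exact 95% intervals. The NRF1 interval of common members and the YY1 interval of depleted-specific members lie above the grey squares, and the Sp1 and NFY intervals contain them.

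Some respiratory chain genes share a promoter region with a neighbour, and the lists name 1 gene for each peak. For 8 of the 53 member promoter peaks the annotation cited a transcript of another gene, among them PDCD11 at ATP5MK, IK at NDUFA2, ERCC8 at NDUFAF2 and TEPSIN at NDUFAF8. The reverse also occurred. Of the 51 members without a listed promoter peak, 18 had an annotated start within 1000 bp of a peak, which was listed for another gene at 16 of them. Of the 18, 10 were near a common, 2 near a control-specific and 7 near a depleted-specific peak, with 1 gene in 2 of these groups. Such genes also occur at large. Of all protein-coding genes, 28.7% had a listed promoter peak and 40.8% a start within 1000 bp of a peak. The share of promoter peaks citing another gene was not computed over all genes.

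Some of these were among the highest peaks at any member's start. NDUFB3, an accessory subunit of complex I, lay 228 bp from a common peak of 39 tags listed for FAM126B, and NDUFS1, its largest core subunit, lay 13 bp from a common peak of 28 tags listed for EEF1B2. UQCR10, a small subunit of complex III, lay 309 bp from a depleted-specific peak of 26 tags listed for ZMAT5, more tags than any depleted-specific peak listed for a member. ATP5PF, a peripheral stalk subunit, lay 22 bp from a common peak listed for GABPA, which encodes the DNA-binding part of GABP. ATP5F1A, the alpha subunit, lay 22 bp from a depleted-specific peak of 13 tags listed for HAUS1.

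Counted by any start within 1000 bp, members had 37 genes at common peaks (36.3%, 27.0 to 46.4) beside 21.8% of all protein-coding genes, and 33 at depleted-specific peaks (32.4%, 23.4 to 42.3) beside 20.1%. Control-specific peaks had 13 (12.7%, 6.96 to 20.8) beside 8.16%, and any list had 69 (67.6%, 57.7 to 76.6) beside 40.8%. In complex V, 18 of 20 genes then had a peak at a start. The order of the lists was that of the listed promoter class.

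Members were set beside other sets of broadly expressed nuclear genes. Common promoter peaks were listed for 37.2% (26.5 to 48.9) of 78 mitochondrial ribosomal protein genes, 46% (31.8 to 60.7) of 50 proteasome subunit genes and 43.0% (32.4 to 54.2) of 86 cytoplasmic ribosomal protein genes. Depleted-specific shares were 21.8%, 26% and 18.6%, close to the 21.6% of the respiratory chain. Each of these intervals overlapped that of the members, and the differences were not tested. The members' common share was below, and their depleted-specific share within, the range of the other 3 sets.

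**Figure D4:**
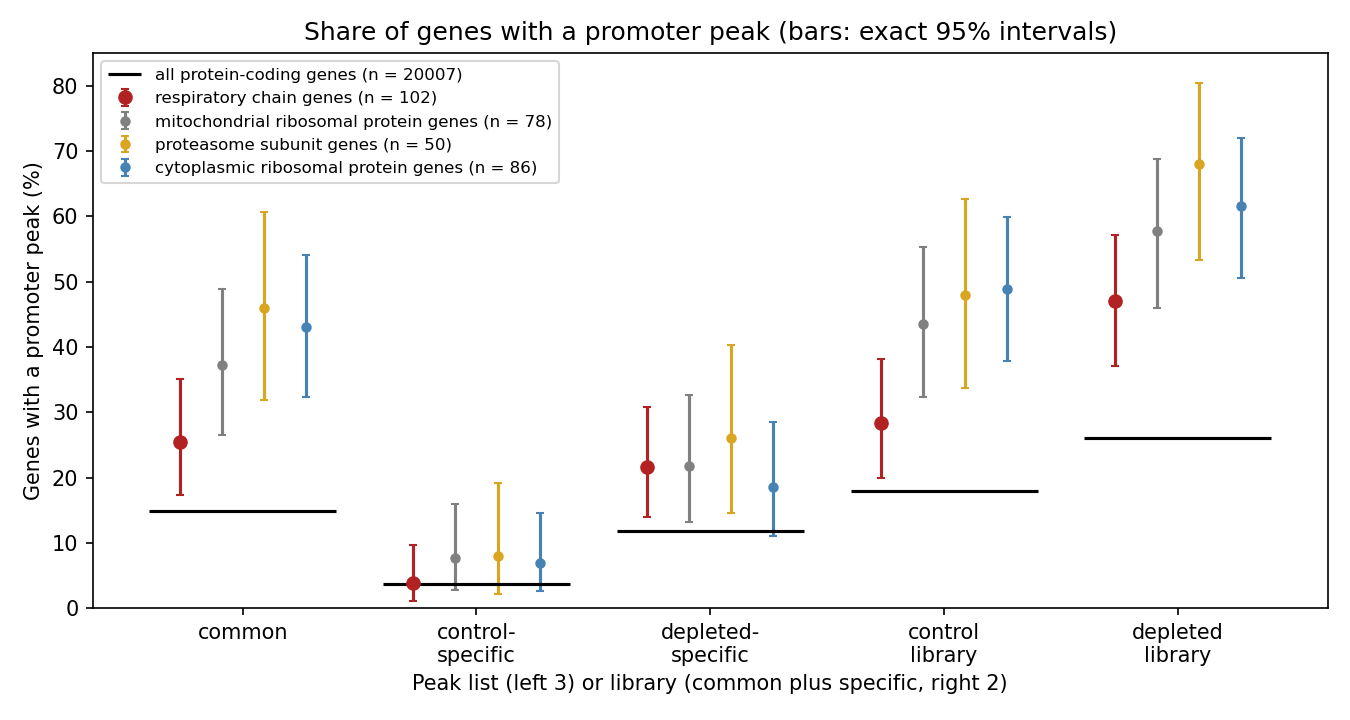
Share of genes with a promoter peak, in percent, by list and by library, where a library joins its specific and the common peaks. Points are gene sets with exact 95% intervals and black lines are all 20007 protein-coding genes. In the depleted-specific list the 4 sets lie between 18.6% and 26%, and in the control-specific list each interval contains the black line.

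Peaks outside promoters were counted separately. There were 134 such peaks at members, 29 common, 43 control-specific and 62 depleted-specific, from lists of 14368, 16236 and 25555 peaks. Many were gathered at a few genes. The same counts by list and by gene over all protein-coding genes are not given here, so neither is shown to be particular to members. The 6 members with most peaks held 80 of the 187 peaks, 74 of them outside promoters. By class, 66 of the 134 were intergenic and 58 intronic, and 85 lay over 10 kb from the start of the gene they were listed for.

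**Figure D5:**
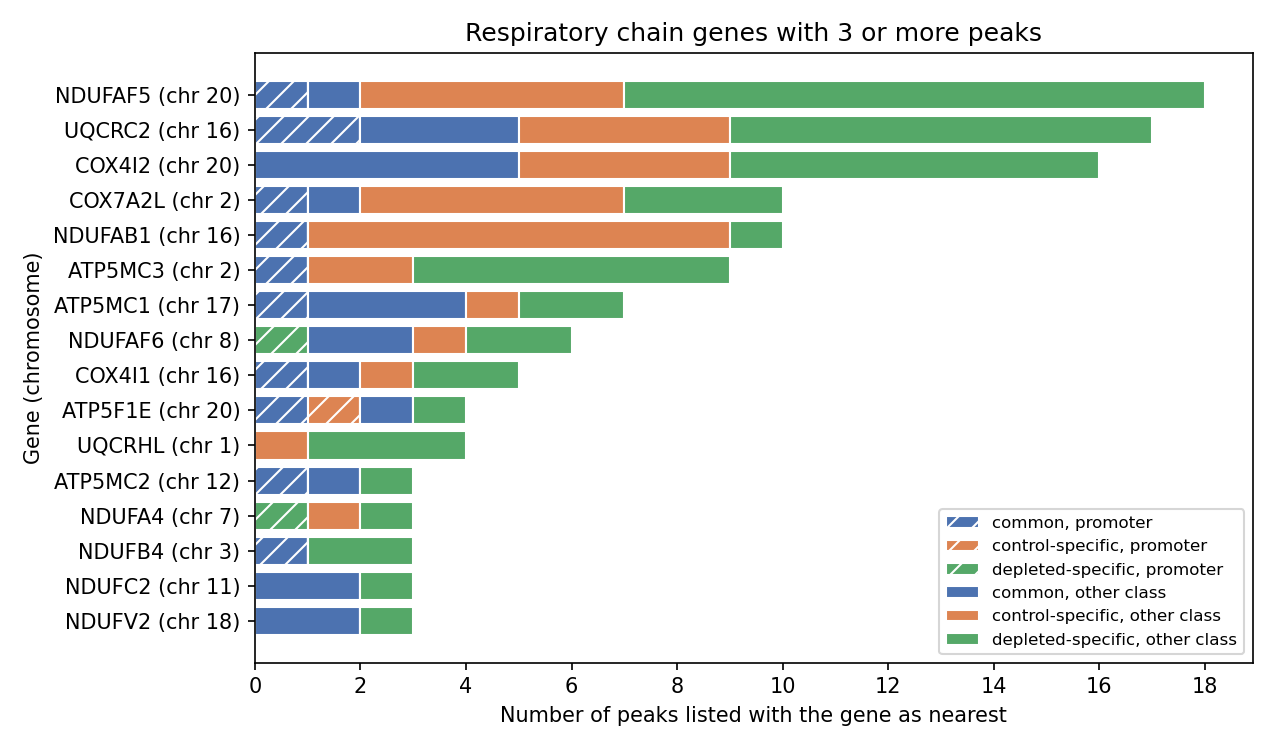
Number of peaks (horizontal axis) listed for each of the 16 members with 3 or more, with the chromosome of each gene. Colour gives the list and hatching marks promoter peaks. NDUFAF5, UQCRC2 and COX4I2 have 16 to 18 peaks each, from all 3 lists.

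Of the 16 members with 3 or more peaks, 9 lay on chromosomes with many peaks, among them the 7 with most peaks. Chromosomes 2, 6, 14, 16, 17 and 20 each had over 3 times the median density of control-specific peaks. They held 24 of the 102 members but 91 of the 134 peaks outside promoters (67.9%, beside 74% for all protein-coding genes), and 15 of the 53 promoter peaks (28.3%, beside 41.5%). The part of this density in the members' counts was not tested. NDUFAF5, a complex I assembly factor on chromosome 20, had 18 peaks, 11 of them depleted-specific and 5 control-specific. UQCRC2 on chromosome 16 had 17, and COX4I2, the lung isoform on chromosome 20, had 16 without any at its promoter. NDUFAB1, the mitochondrial acyl carrier protein on chromosome 16, had 8 control-specific peaks outside its promoter and 1 depleted-specific. Some of these peaks lay in neighbouring genes by their class. Those were BCL2L1 for COX4I2, PALB2 for NDUFAB1 and SEL1L2 for NDUFAF5.

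Further peak-rich members were COX7A2L, a factor of respiratory supercomplexes, with 10 peaks, ATP5MC3 with 9, ATP5MC1 with 7, NDUFAF6 with 6, COX4I1 with 5, and ATP5F1E and UQCRHL with 4 each. ATP5MC2, NDUFA4, NDUFB4, NDUFC2 and NDUFV2 had 3. UQCRHL, a retained copy of UQCRH on chromosome 1, had an intergenic depleted-specific peak of 24 tags, the highest depleted-specific count outside promoters at any member. Specific peaks of both libraries were listed for 16 members, a count for which no share over all protein-coding genes was computed. These were the 11 members with 4 or more peaks, NDUFA4, and ATP5MJ, NDUFA10, NDUFA12 and UQCRB, the last 4 with 1 specific peak of each library.

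The depleted-specific promoters of members lay mostly off the dense chromosomes. Elsewhere, 20 of 78 members had a depleted-specific promoter peak (25.6%, 16.4 to 36.8), beside 11.6% of all protein-coding genes there. On the dense chromosomes it was 2 of 24 (8.33%, 1.03 to 27.0), beside 12.9%. Common promoters were listed for 15 of 78 members elsewhere and 11 of 24 on the dense chromosomes, beside 10.8% and 25.7%. The 2 depleted-specific promoters on dense chromosomes were those of ATP5MJ and NDUFAF4.

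The 66 other genes of the chain, which are electron carriers, assembly factors with other names and regulators, had 26 common (39.4%, 27.6 to 52.2), 9 control-specific (13.6%, 6.43 to 24.3) and 16 depleted-specific promoter genes (24.2%, 14.5 to 36.4), beside 14.9%, 3.73% and 11.9% of all protein-coding genes. The control-specific share of these genes was thus above that background, while that of the members (3.92%) was near it. The difference between the lists of genes was not tested. The background itself was 6.31% on the dense chromosomes and 2.75% elsewhere, and the chromosomes of the 66 genes were not taken into account. NUBPL had 62 control-specific peaks of any class. The electron carriers had 4 common promoters among 5, including CYCS, which encodes cytochrome c, and no specific one. CYC1, which encodes cytochrome c1 of complex III but fell outside the symbol rule, was counted with these carriers and had no peak of any class. Among 12 further complex I assembly genes, TIMMDC1, ACAD9, COA1 and DMAC2 had depleted-specific promoter peaks, TMEM126B a control-specific one, and TMEM126A both. TMEM186 and NUBPL had a control-specific promoter peak beside common ones, so their promoters were listed in both libraries. The scores of the first group ran from 6.59 at DMAC2 to 9.13 at TIMMDC1.

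Among assembly genes of the later complexes, control-specific promoters were listed for 4 of 23 genes of complex IV. None was listed for the 6 genes each of complex III and the ATP synthase. The share over all protein-coding genes was 3.73%, so none among 6 is near that background, and a difference between these sets was not tested. For complex III, LYRM7, which delivers the Rieske protein, had a depleted-specific promoter peak with a score of 10.6. For complex IV, COX17, the copper chaperone, had a depleted-specific score of 9.63, and COX20 and SCO2 had 6.59 and 6.08. COX10, which makes heme O, had a control-specific score of 6.1, COX16 had 6.51 and PET117 6.91, while COX11 had a control-specific peak (8.54) and a depleted-specific one (5.58). For the ATP synthase, DMAC2L had a depleted-specific score of 6.08.

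Of 14 regulators, depleted-specific promoter peaks were listed for YY1 (score 8.11), GABPB1 (5.58), which encodes the partner of GABPA, TFAM (6.08), which packages mitochondrial DNA, and POLRMT (7.1), the mitochondrial RNA polymerase. PPARGC1A, the coactivator of mitochondrial biogenesis, had depleted-specific (8.62) and control-specific (6.91) promoter peaks. GABPA, ESRRA, CREB1, PPRC1, TFB1M and TFB2M had common ones. NRF1 itself had no promoter peak in any list.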

How the data were processed

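FAIRE DNA of 2 HepG2 groups, grouped by the treatment in the labels, was sequenced with 1 library per group. Per the submitters' processing notes and the study's methods, the authors used bcl2fastq 2.17, Trimmomatic 0.39, Bowtie2 2.4.5 and SAMtools 1.14 with hg38, and called and annotated peaks with HOMER. Each deposited peak has a score, the authors' scaled tag number. The rule that separates common from specific peaks is not given in the sources used here. The deposited distance to the TSS, class and gene name were used as given.

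Here, peaks were counted by gene name, class and list. Of 10676 protein-coding names in the lists, 98.7% matched GENCODE release 44, 2 of the members under another symbol. Tags were scores divided by the step of the list, 0.407 for the common and control-specific lists and 0.507 for the depleted-specific list. Motifs and sequences were read from hg38 at the listed coordinates, taken as 1-based. With 1 library per group, no test between conditions was made. Scripts were tested on simulated data. The values of 1 member and the sequence of 1 peak are not reported here. Members and lists were chosen with earlier results of these data known. The genes named were members with a specific promoter peak, with 3 or more peaks or with specific peaks of both libraries, the 5 highest and 5 lowest common promoter scores, and other chain genes with a specific promoter peak. Software was scipy 1.17.1, pandas 2.3.3, numpy 2.4.6 and, for plots, matplotlib 3.10.9, under Python 3.11.15.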

Additional observations from a re-analysis of the deposited data

How the results depend on the processing

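Of 48 alternative values, 38 differed from the reported one by at most 1.5 times (counts) or by less than its interval or spread (other values). These included 33 depleted-specific and 37 common members by any start within 1000 bp, 7.55% for ETS within 150 bp (1.89% within 100 bp) and 7.55% for NRF1 within 50 bp (13.2%). The number of members with a common promoter peak, 26, was 15 without the dense chromosomes. The number with a control-specific promoter peak, 4, was 7 with peaks within 1000 bp of the listed start, 23 with peaks of any class, 13 with any member start within 1000 bp, and 2 with specific peaks near a common peak also taken as shared. Depleted-specific promoters, listed for 22 members, became 45 members with any class and 10 with 15 or more tags. Within 50 bp of the centre, the shares of all member promoter peaks with a YY1, Sp1 or NFY string were 3.77%, 30.2% and 26.4%, against 13.2%, 47.2% and 45.3% within 100 bp. The alternatives of 15 or more tags and of nearness to common peaks were chosen after seeing the data. No paired analysis was possible because there was a single library for each group and nothing was tested. Leaving out a replicate was impossible for the same reason. Peaks of 11 to 15 tags, most of the depleted-specific ones, are near the limit of what these depths could list.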
